A study of Medicago truncatula with 6 samples.

Results

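Cyclins, cyclin-dependent kinases (CDKs) and kinesins were described in mycorrhizal roots of the legume Medicago truncatula. The members were the annotated genes whose description holds the word cyclin, which takes in cyclin-dependent kinases, or the word kinesin. There were 206 such genes of 51519 annotated genes, in a table of 54762 loci. By the closest Swiss-Prot name and the description, 152 of them were cyclins, CDKs, CDK inhibitors, CDK regulatory subunits or motor kinesins. The other 54 were described with 1 of these words and had another closest protein, or were kinesin light chain-related or F-box proteins. The annotated protein domains fitted the main classes, with a kinase domain in all 34 CDKs and a motor domain in 50 of 52 kinesins, and 59 members carried a cyclin domain. Of the 34 CDKs, 14 had a closest entry that is not named as a CDK, so their class rests on the description.

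RNA was sequenced from Mtphr2 mutant roots (3 libraries) and from roots of the wild-type line R108 (3 libraries), all of them mycorrhizal. PHR proteins are transcription factors of the phosphate starvation response. The labels name no treatment or age, and the mutated locus is not given in the sources used here. Technical replicates is the labels' word for the 3 libraries of each genotype, so p-values measure only the spread between these libraries. Deposited counts summed to between 18199040 and 21477169 per library, and members took 0.492% to 0.561% of a library. Levels are in CPM, the count per library scaled to a common size.

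The labelled tissue, root, was set beside marker genes. All 10 arbuscule marker genes, which mark root cells that hold the branched fungal structures called arbuscules, were detected. They summed to 899, 89.3 and 192 CPM in Mtphr2 replicates 1, 2 and 3, against 4139, 1941 and 964 CPM in R108 replicates 1, 2 and 3. PT4 and MYB1 held the largest parts of the sum in R108 replicate 1, at 1705 and 1307 CPM. The median log2 fold change of the 10 markers, always Mtphr2 over R108, was -2.52, and all 10 had negative values. At an adjusted p under 0.05, edgeR called 0 of the 10 (smallest adjusted p 0.206), the replicate block 1 and DESeq2 3 (backgrounds 0.0794%, 0.335% and 5.73%). The genotypes did not overlap for 6 of the 10 (background 10.6%). The 8 root tip genes summed to 128 to 154 CPM in Mtphr2 and 118 to 163 CPM in R108. This list is mixed, with genes closest to SHORT-ROOT and SCARECROW beside PLT2-like and WUSCHEL-related genes. Log2 fold changes were positive for 6 of them and negative for 2, MTR_1g069725 (-1.89, SE 0.94) and MTR_2g099110 (-0.84, SE 0.49). In these 2, R108 replicate 1 was at 17.7 and 4.27 times R108 replicate 3. Leghemoglobins, which mark nodules, were at 0 in every library for 7 of 12 genes and summed to 1.96 to 3.64 CPM in Mtphr2 and 4.12 to 11.6 CPM in R108. The 33 leaf genes summed to 123 to 207 CPM in Mtphr2 and 128 to 196 CPM in R108. In such bulk samples, fewer cells of a type and less RNA per cell cannot be told apart.

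Cyclins bind and activate CDKs, and the pair drives the steps of the cell cycle by phosphorylating other proteins. In plants, D-type cyclins act at the entry into the cycle, A-type cyclins in S and G2 phase and B-type cyclins in mitosis, while C-, H-, L- and T-type cyclins mainly pair with kinases that act on RNA polymerase II or on splicing. Kinesins are motor proteins that move along microtubules, and many of them build the spindle and the phragmoplast, the structure that lays down the new cell wall. Root cells that prepare for or hold arbuscular mycorrhizal fungi are known to reactivate parts of the cell cycle and to become polyploid.

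Most members differed little between the genotypes. Of the 206 members, 148 had enough counts to be tested, 38 had no count in any library and 20 had counts of at most 13 in a library. The edgeR quasi-likelihood test called 0 members at an adjusted p under 0.05 (background 0.0794% of 22663 tested genes), and the smallest adjusted p among members was 0.185. The background is always taken over all tested loci of the table, annotated or not, while members are annotated genes only. DESeq2 called 8 members (5.41% of tested members, background 5.73%). They were 2 with higher levels in Mtphr2 (1.35%, background 2.77%) and 6 with lower levels (4.05%, background 2.96%). At an unadjusted p under 0.05, edgeR gave 24 members, or 16.2%, against a background of 16.4%. With the replicate number as a block in edgeR it was 19.6%, against a background of 20.2%. The 24 were 20 members with lower levels in Mtphr2 (13.5%, background 8.41%) and 4 with higher levels (2.70%, background 8.01%). The libraries of the 2 genotypes did not overlap for 28 members with lower levels in Mtphr2 (18.9%, background 10.6%) and for 7 with higher levels (4.73%, background 11.6%).

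The median log2 fold change was -0.077 over the 148 tested members and 0.017 over all tested genes. Values were negative for 88 members (59.5%, background 47.7%) and positive for 60. The levels of 140 members were within 1.5-fold of each other in the 2 genotypes (94.6%, against 82.1% of all tested genes). At least 2-fold differences were seen for 5 members, all with lower levels in Mtphr2, where 8.43% of all tested genes differed by as much in either direction.

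**Figure D1:**
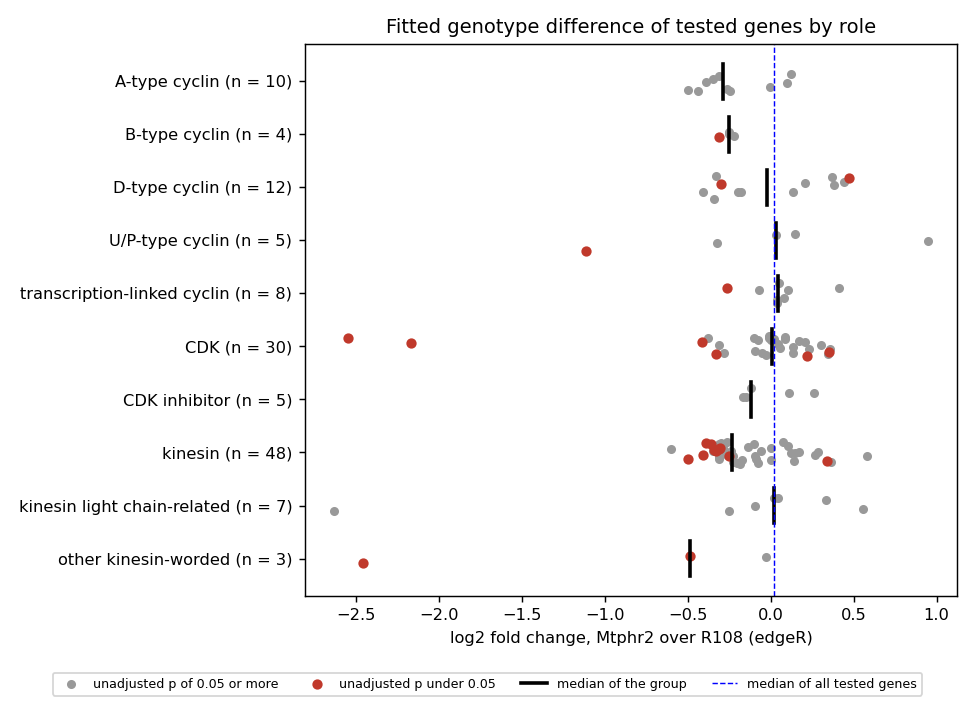
Each point is 1 tested gene, placed by its log2 fold change (Mtphr2 over R108, edgeR) on the horizontal axis and by its role on the vertical axis; black bars are group medians and the dashed line is the median of all tested genes. Most points lie close to 0, motor kinesins and A- and B-type cyclins lie mostly to the left of the dashed line, and a few CDK-described and kinesin-worded genes lie below -2.

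Genes described as kinases or kinesin partners made up most of the large differences. MTR_8g092290 is described as a cyclin-dependent kinase, carries a protein kinase domain and is closest to the Arabidopsis kinase At1g54610, not to a CDK with a letter name. Its level was 26.1, 4.56 and 7.67 CPM in Mtphr2 replicates 1, 2 and 3, against 139, 56.5 and 27.8 CPM in R108 replicates 1, 2 and 3. The genotypes did not overlap, but Mtphr2 replicate 1 came close to R108 replicate 3. The log2 fold change of MTR_8g092290 was -2.55 (SE 0.83), with an adjusted p of 0.254 in edgeR, 0.0671 with the replicate number as a block and 0.0831 in DESeq2. It was -1.73 without R108 replicate 1 and -3.60 without Mtphr2 replicate 1.

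MTR_1g098300 has the same closest kinase and a similar order of libraries. Its level was 10.3, 3.55 and 3.43 CPM in Mtphr2 replicates 1, 2 and 3, against 42.4, 27.1 and 8.02 CPM in R108 replicates 1, 2 and 3. The genotypes overlapped, since Mtphr2 replicate 1 was above R108 replicate 3. Its log2 fold change was -2.17 (SE 0.70), with an adjusted p of 0.251 in edgeR and 0.0197 in DESeq2. Without R108 replicate 1 the value was -1.61, and without Mtphr2 replicate 1 it was -2.89. There were 9 members closest to At1g54610, all of them tested, and the remaining 7 had log2 fold changes between -0.10 and 0.36 with overlapping genotypes. Among these, MTR_4g118780 had the highest value of all CDK-described members. It was at 5.12, 8.98 and 12.3 CPM in Mtphr2 replicates 1, 2 and 3, against 5.05, 8.67 and 6.88 CPM in R108 replicates 1, 2 and 3. Its log2 fold change of 0.36 (SE 0.36) was no larger than its standard error, with an adjusted p of 0.654 in edgeR.

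MTR_3g107650 is described as a kinesin-associated protein and has no annotated domain, so its role is not known here. Its level was 6.93, 1.93 and 2.86 CPM in Mtphr2 replicates 1, 2 and 3, against 36.5, 20.4 and 7.37 CPM in R108 replicates 1, 2 and 3. All 3 Mtphr2 libraries were below all 3 R108 libraries. The log2 fold change was -2.46 (SE 0.70), with an adjusted p of 0.223 in edgeR, 0.08 with the replicate block and 0.00603 in DESeq2. Leaving out R108 replicate 1 gave -1.83, and leaving out Mtphr2 replicate 1 gave -3.16. The lowest fold change of all members, -2.63 (SE 1.26, edgeR adjusted p 0.355), belonged to MTR_4g106900, closest to kinesin light chain-related protein 3. It was scarce, with at most 0.803 CPM in Mtphr2 and 0.163 to 5.48 CPM in R108, and the genotypes overlapped.

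MTR_4g124650 is a kinesin by its closest Swiss-Prot entry, KIN-7B, although its description as an ATP-binding microtubule motor family protein holds neither word, so it was not counted among the 206. The Arabidopsis KIN-7B protein, also called TETRASPORE, is known for its part in cytokinesis after male meiosis. The level of MTR_4g124650 was 36.3, 21.6 and 16.4 CPM in Mtphr2 replicates 1, 2 and 3, against 164, 95.6 and 47.7 CPM in R108 replicates 1, 2 and 3. The highest Mtphr2 library stayed below the lowest R108 library. The log2 fold change was -2.05 (SE 0.50), with an adjusted p of 0.197 in edgeR, 0.0426 with the replicate block (background 0.335%) and 0.000923 in DESeq2. It thus fell by these last 2 tests and did not pass the first.

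These 4 genes with mean levels above 2 CPM were, like the summed arbuscule markers, highest in R108 replicate 1 and next in R108 replicate 2. MTR_8g092290 and MTR_3g107650 had the order of the marker sums over all 6 libraries. In MTR_4g124650 and MTR_1g098300 the places of Mtphr2 replicates 2 and 3 were exchanged, and in MTR_1g098300 Mtphr2 replicate 1 also stood above R108 replicate 3. The level in R108 replicate 1 was 4.998 times that in R108 replicate 3 for MTR_8g092290, 5.29 times for MTR_1g098300, 4.96 times for MTR_3g107650 and 3.44 times for MTR_4g124650, beside a median of 4.74 over the 10 arbuscule markers. In the mutant, replicate 1 was at 3.40, 3.002, 2.42 and 2.22 times replicate 3 for the same genes in the same order, beside 4.10 for the markers. Of the 148 tested members, 5 had at least 2 times as much in R108 replicate 1 as in R108 replicate 3 (3.38%, against 8.63% of all tested genes). Besides the 3 members above, these were MTR_4g106900 and the very scarce cyclin-U1-like gene MTR_2g088860. The part of arbuscule-containing cells in these values was not tested.

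**Figure D2:**
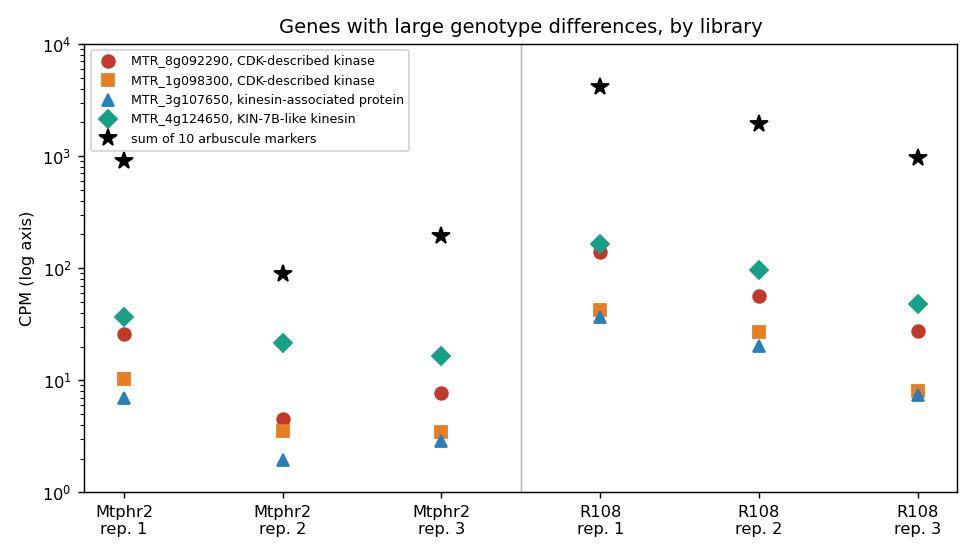
Levels in CPM on a log axis for 4 genes and for the sum of 10 arbuscule markers, in each Mtphr2 and R108 library. All 5 series are highest in R108 replicate 1 and, within Mtphr2, highest in replicate 1; MTR_1g098300 alone has an Mtphr2 value above its lowest R108 value.

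B-type cyclins, the mitotic cyclins, had lower mean levels in Mtphr2 for all 4 tested genes, with a median log2 fold change of -0.25. The difference was small and none of the 4 passed edgeR after adjustment. MTR_5g023790, closest to a cyclin first described in alfalfa, was at 32.4, 41.4 and 34.9 CPM in Mtphr2 replicates 1, 2 and 3, against 43.7, 42.6 and 48.7 CPM in R108 replicates 1, 2 and 3. Its genotypes did not overlap, and its log2 fold change was -0.31 (SE 0.12, edgeR adjusted p 0.284). MTR_7g089080 was at 56.7, 68.9 and 55.9 CPM in Mtphr2 replicates 1, 2 and 3, against 68.2, 70.9 and 72.3 CPM in R108 replicates 1, 2 and 3. Mtphr2 replicate 2 lay within the R108 range, and the log2 fold change was -0.22 (SE 0.11, edgeR adjusted p 0.357). The other 10 of the 14 B-type genes had no count in any library.

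A-type cyclins had negative values for 8 of 10 tested genes and a median log2 fold change of -0.28. None had an unadjusted p under 0.05 in edgeR, and DESeq2 and the replicate block called 0. The lowest value was that of MTR_3g107970, closest to cyclin-A2-1, with 11.7, 17.0 and 14.8 CPM in Mtphr2 replicates 1, 2 and 3, against 18.5, 17.2 and 25.9 CPM in R108 replicates 1, 2 and 3. No Mtphr2 library reached the R108 range, though Mtphr2 replicate 2 and R108 replicate 2 were nearly equal, and its log2 fold change was -0.50 (SE 0.21, edgeR adjusted p 0.311). The highest was MTR_2g102520, closest to cyclin-A2-4, with 24.8, 19.2 and 20.999 CPM in Mtphr2 replicates 1, 2 and 3, against 17.6, 20.6 and 21.6 CPM in R108 replicates 1, 2 and 3. These ranges overlapped, with a log2 fold change of 0.12 (SE 0.14, edgeR adjusted p 0.701). Without Mtphr2 replicate 1 the class median was -0.17.

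CDKB kinases, which plants have and which act at the G2 to mitosis step, had negative values for both members. MTR_4g007750, closest to Arabidopsis CDKB1-2, was at 26.1, 30.4 and 24.8 CPM in Mtphr2 replicates 1, 2 and 3, against 35.4, 35.9 and 36.7 CPM in R108 replicates 1, 2 and 3. Every Mtphr2 library was below every R108 library. The log2 fold change was -0.41 (SE 0.11), with an adjusted p of 0.201 in edgeR and 0.0336 in DESeq2, which called it. The other CDKB gene, MTR_1g075610, stood at -0.28 on the log2 scale (SE 0.13, edgeR adjusted p 0.338) with overlapping genotypes. CDKA kinases act through the whole cycle, and both tested CDKA genes were at nearly the same level in the 2 genotypes. MTR_4g094430 and MTR_2g032060 had log2 fold changes of -0.0080 and 0.022.

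D-type cyclins were split evenly, with 6 positive and 6 negative values and a median log2 fold change of -0.021. Leaving out single libraries moved this median between -0.25 and 0.17. MTR_5g035360, closest to cyclin-D1-1, was at 37.5, 40.7 and 43.1 CPM in Mtphr2 replicates 1, 2 and 3, against 27.4, 32.5 and 27.7 CPM in R108 replicates 1, 2 and 3. Every Mtphr2 library was above every R108 library. In log2 terms the difference was 0.47 (SE 0.11), with an adjusted p of 0.187 in edgeR and 0.0253 in DESeq2, which called it. At the other end, MTR_4g094942, closest to cyclin-D3-2, was at 17.7, 23.3 and 22.6 CPM in Mtphr2 replicates 1, 2 and 3, against 23.6, 29.2 and 27.9 CPM in R108 replicates 1, 2 and 3. The 2 genotypes stayed apart by a narrow margin, and its log2 fold change was -0.34 (SE 0.15, edgeR adjusted p 0.313).

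U- and P-type cyclins form a plant group whose yeast relatives act in phosphate sensing. They numbered 5 tested genes, and the values of the group went both ways. MTR_7g081130, closest to cyclin-U4-1, was at 6.68, 3.50 and 3.24 CPM in Mtphr2 replicates 1, 2 and 3, against 8.03, 9.43 and 11.5 CPM in R108 replicates 1, 2 and 3. All Mtphr2 libraries were below all R108 libraries, but R108 replicate 3 was its highest library, another order than in the arbuscule markers. Its log2 fold change was -1.11 (SE 0.32), with an adjusted p of 0.225 in edgeR and 0.0366 in DESeq2. The second cyclin-U4-1-like gene, MTR_8g007380, had a log2 fold change of -0.32 (SE 0.15, edgeR adjusted p 0.345), and its genotypes did not overlap. MTR_4g028060, closest to cyclin-U2-1, was at 13.2, 14.1 and 17.95 CPM in Mtphr2 replicates 1, 2 and 3, against 13.1, 12.3 and 15.7 CPM in R108 replicates 1, 2 and 3. These values overlapped, with a log2 fold change of 0.14 (SE 0.17, edgeR adjusted p 0.705).

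Transcription-linked cyclins stayed near 0, with a median log2 fold change of 0.045 over 8 tested genes. The lowest was MTR_7g055650, closest to cyclin-C1-2, with 15.3, 15.7 and 14.999 CPM in Mtphr2 replicates 1, 2 and 3, against 19.8, 17.4 and 18.1 CPM in R108 replicates 1, 2 and 3. Its genotypes did not overlap, and its log2 fold change was -0.26 (SE 0.10, edgeR adjusted p 0.284). The highest was MTR_7g094070, closest to cyclin-T1-3, with 5.12, 5.57 and 7.43 CPM in Mtphr2 replicates 1, 2 and 3, against 4.50, 4.97 and 4.12 CPM in R108 replicates 1, 2 and 3. Here the Mtphr2 libraries were the higher ones by a narrow margin, with a log2 fold change of 0.41 (SE 0.21, edgeR adjusted p 0.374).

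CDKG kinases, which in Arabidopsis act on splicing and chromosome pairing, had positive values for all 3 members. MTR_4g103810, closest to CDKG-2 of rice, was at 142, 125 and 143 CPM in Mtphr2 replicates 1, 2 and 3, against 111, 107 and 103 CPM in R108 replicates 1, 2 and 3. All 3 Mtphr2 libraries were above the R108 libraries. The log2 fold change of this gene was 0.35 (SE 0.09), with an adjusted p of 0.199 in edgeR and 0.0321 in DESeq2, which called it. The other CDKG genes, MTR_3g085650 and MTR_8g080190, had log2 fold changes of 0.23 (SE 0.11) and 0.14 (SE 0.07), and neither was called. The 2 CDKC-2-like genes MTR_3g040520 and MTR_3g040810 had values of -0.10 and 0.22, but the counts of each were not whole in 1 library, as when reads are shared between similar genes, so their split is uncertain. The CDKD genes, whose products activate other CDKs, and the CDKE gene had values of -0.38 to 0.14, with overlapping genotypes.

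CDK inhibitors and the CDK regulatory subunit among the members differed little. The KRP proteins, which bind and block CDKs, had 4 tested genes, with log2 fold changes from -0.17 to 0.11. MTR_1g072860, closest to KRP4, was at 2.11, 3.78 and 2.71 CPM in Mtphr2 replicates 1, 2 and 3, against 3.37, 3.64 and 2.65 CPM in R108 replicates 1, 2 and 3. MTR_7g057920, closest to KRP3, was at 24.2, 24.1 and 23.0 CPM in Mtphr2 replicates 1, 2 and 3, against 19.2, 25.3 and 21.6 CPM in R108 replicates 1, 2 and 3. Both overlapped, with log2 fold changes of -0.17 (SE 0.29, edgeR adjusted p 0.810) and 0.11 (SE 0.13, edgeR adjusted p 0.697). The inhibitor MTR_7g062230, closest to SMR4, of a plant family that blocks CDKs and is known to act with endoreplication, had a value of 0.26 (SE 0.41) at 1.10 to 2.95 CPM in Mtphr2 and 1.36 to 2.15 CPM in R108. Further genes are closest to an SMR protein but hold neither word in the description, so they are not members. Those tested had log2 fold changes from -0.068 for MTR_1g052770 to 0.55 for MTR_8g069510 (SE 0.21, edgeR adjusted p 0.279), with overlapping genotypes. The regulatory subunit gene MTR_4g057040, closest to CKS1, had a log2 fold change of -0.12 (SE 0.08, edgeR adjusted p 0.498).

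Kinesins formed the largest class, and most of them were slightly lower in Mtphr2 without passing edgeR after adjustment. The class was not tested as a set. Of 48 tested motor kinesins, 35 had negative (72.9%, background 47.7%) and 13 positive values, and the median log2 fold change was -0.23. An unadjusted p under 0.05 in edgeR was seen for 9 with lower levels in Mtphr2 (18.75%, background 8.41%) and 1 with higher levels (2.08%, background 8.01%), and 0 passed after adjustment. DESeq2 called 2, both with lower levels (4.17%, background 2.96% for lower and 5.73% for either direction). The genotypes did not overlap for 11 with lower levels (22.9%, background 10.6%) and 2 with higher levels (4.17%, background 11.6%). Within pairs of libraries of the same number, the median difference was -0.24, -0.10 and -0.20 on the log2(CPM + 0.5) scale for numbers 1, 2 and 3, with 37, 37 and 36 of 48 values negative. Over all 22663 tested genes, 11158, 10775 and 11282 values were negative for numbers 1, 2 and 3.

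KIN-13 and KIN-12 kinesins gave the 2 members that DESeq2 called. MTR_2g101990 is closest to KIN-13B, of a family whose animal members take microtubules apart. It was at 90.3, 91.6 and 88.9 CPM in Mtphr2 replicates 1, 2 and 3, against 109, 112 and 113 CPM in R108 replicates 1, 2 and 3. The gap between the genotypes was wider than the range of the libraries within either of them. Its log2 fold change was -0.30 (SE 0.07), with an adjusted p of 0.185 in edgeR and 0.0018 in DESeq2. MTR_3g084790 is closest to KIN-12B, a kinesin that in Arabidopsis organises the phragmoplast. It was at 45.4, 49.3 and 46.0 CPM in Mtphr2 replicates 1, 2 and 3, against 55.9, 57.7 and 64.7 CPM in R108 replicates 1, 2 and 3. No Mtphr2 library reached the R108 range, and its log2 fold change was -0.34 (SE 0.09), with an adjusted p of 0.211 in edgeR and 0.0398 in DESeq2.

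By family, among the members alone, the median log2 fold change was -0.22 for 8 KIN-12, -0.26 for 18 KIN-14, -0.27 for 6 KIN-4, -0.31 for 3 KIN-5, -0.19 for 4 KIN-7 and -0.094 for 3 KIN-13 genes. Kinesins matched by Swiss-Prot name alone are not in these medians. Of these, KIN-7 genes with a motor domain ran from -2.05 for MTR_4g124650 to 0.42 for MTR_8g076190, and KIN-14 genes from -0.25 for MTR_7g112420 to 0.24 for MTR_1g087880. With all genes of a kinesin Swiss-Prot name added, 45 of 63 values were negative (71.4%, background 47.7%) and 18 positive, with a median of -0.23. The 18 include MTR_4g111965 (0.54), which has no annotated motor domain. The 2 KIN-U members had positive values with a median of 0.21. KIN-5 motors hold the spindle poles apart, and KIN-4 motors act on the phragmoplast and on cellulose deposition. The KIN-4 gene MTR_5g066320 was at 58.3, 74.7 and 63.0 CPM in Mtphr2 replicates 1, 2 and 3, against 79.6, 86.3 and 91.3 CPM in R108 replicates 1, 2 and 3. The 2 genotypes stayed apart and its log2 fold change was -0.39 (SE 0.12, edgeR adjusted p 0.232).

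KIN-14 kinesins, which move towards the minus ends of microtubules, held both ends of the range among member kinesins with at least 2 CPM. MTR_5g025100, closest to KIN-14E, a calmodulin-binding kinesin of trichome shape in Arabidopsis, was at 54.4, 44.5 and 48.8 CPM in Mtphr2 replicates 1, 2 and 3, against 83.0, 72.6 and 53.4 CPM in R108 replicates 1, 2 and 3. R108 replicate 3 lay within the Mtphr2 range, and the log2 fold change was -0.50 (SE 0.18, edgeR adjusted p 0.266). MTR_3g060900, closest to KIN-14F, was at 35.2, 65.8 and 93.2 CPM in Mtphr2 replicates 1, 2 and 3, against 37.8, 53.1 and 38.9 CPM in R108 replicates 1, 2 and 3. Its highest and lowest values were both Mtphr2 libraries, with a log2 fold change of 0.58 (SE 0.35, edgeR adjusted p 0.448). MTR_1g081800, closest to KIN-14U, was at 105, 108.1 and 126 CPM in Mtphr2 replicates 1, 2 and 3, against 81.6, 85.3 and 101 CPM in R108 replicates 1, 2 and 3. Its genotypes did not overlap, and its log2 fold change was 0.34 (SE 0.12, edgeR adjusted p 0.266). The second lowest member kinesin at this level was MTR_4g112350, closest to KIN-8A, with 13.4, 16.3 and 16.2 CPM in Mtphr2 replicates 1, 2 and 3, against 17.6, 22.5 and 20.8 CPM in R108 replicates 1, 2 and 3. In log2 terms the difference was -0.41 (SE 0.14, edgeR adjusted p 0.263), with no overlap.

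**Figure D3:**
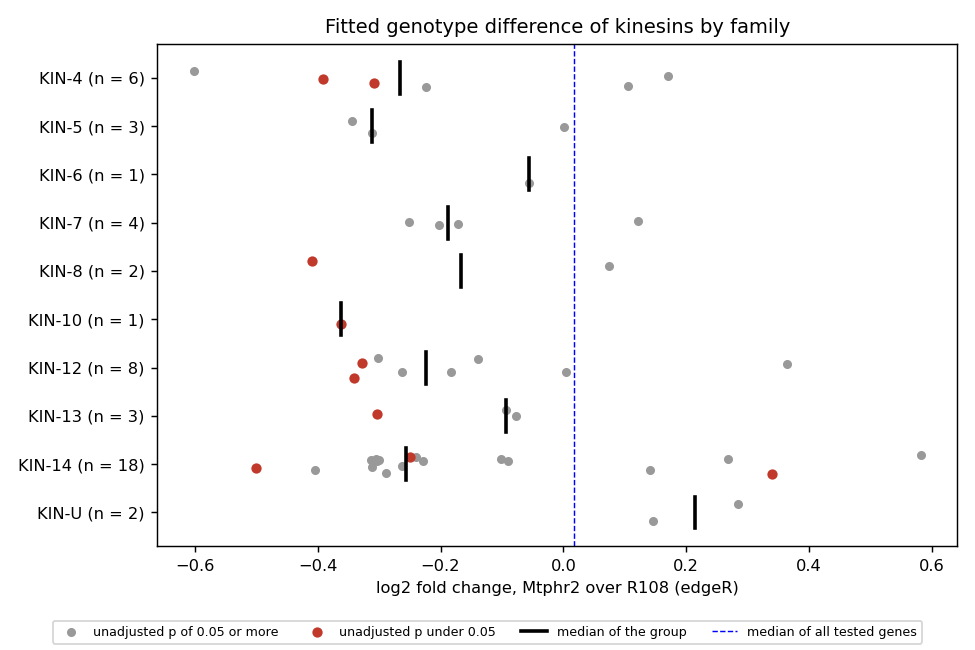
Each point is 1 tested motor kinesin among the members, placed by its log2 fold change (Mtphr2 over R108, edgeR) on the horizontal axis and by kinesin family on the vertical axis. Black bars are family medians. The medians of KIN-4, KIN-5, KIN-12 and KIN-14 lie between -0.31 and -0.22, and both KIN-U genes lie above 0.

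A further 40 genes hold the word cyclin or kinesin in the closest Swiss-Prot name but not in the description, and 24 of them were tested. MTR_4g124650, above, was one. MTR_4g111965 has KIN-7D as its closest entry, but it is described as a transmembrane fragile-X-F-associated protein and has no annotated motor domain, so the files do not show it to be a kinesin. It was at 97.7, 91.9 and 102 CPM in Mtphr2 replicates 1, 2 and 3, against 67.0, 66.3 and 66.4 CPM in R108 replicates 1, 2 and 3. The R108 libraries were nearly equal and all Mtphr2 libraries were above them, with a log2 fold change of 0.54 (SE 0.08), an adjusted p of 0.0996 in edgeR and 2.06e-06 in DESeq2. DESeq2 called it and edgeR did not. The members closest to KIN-7D, both with a motor domain, were MTR_3g117330 with a value of -0.17 (SE 0.09, edgeR adjusted p 0.375) and MTR_4g071210 with 0.12 (SE 0.16, edgeR adjusted p 0.744). MTR_5g021650, closest to KIN-7F of rice, was at 18.2, 19.5 and 20.5 CPM in Mtphr2 replicates 1, 2 and 3, against 30.6, 26.3 and 29.5 CPM in R108 replicates 1, 2 and 3. No Mtphr2 library reached the R108 range, with a log2 fold change of -0.57 (SE 0.11), an adjusted p of 0.145 in edgeR and 0.00149 in DESeq2. MTR_6g082470, closest to the tobacco cytokinesis kinesin NACK1, had a log2 fold change of -0.34 (SE 0.13, edgeR adjusted p 0.285), also with no overlap. Apart from MTR_4g124650, the genes of this paragraph were chosen after their values were seen.

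B-type cyclins, CDKB and motor kinesins shared a lowest and a highest library, in another order than the arbuscule markers. Each gene's log2(CPM + 0.5) was centred on its mean over the 6 libraries, and the class median was taken. For B-type cyclins it was -0.28, 0.062 and -0.18 in Mtphr2 replicates 1, 2 and 3, against 0.040, 0.042 and 0.32 in R108 replicates 1, 2 and 3. For motor kinesins it was -0.21, 0.0052 and -0.029 in Mtphr2 replicates 1, 2 and 3, against -0.0054, 0.12 and 0.17 in R108 replicates 1, 2 and 3. For CDKB it was -0.28, 0.026 and -0.27 in Mtphr2 replicates 1, 2 and 3, against 0.12, 0.15 and 0.25 in R108 replicates 1, 2 and 3. Mtphr2 replicate 1 was thus the lowest library and R108 replicate 3 the highest in all 3 classes, and of the 3 only the CDKB medians did not overlap between genotypes. A-type cyclins had the same lowest and highest library, with medians of -0.26 to 0.0016 in Mtphr2 and 0.044 to 0.11 in R108. The summed root tip markers, the mixed list given above, had another order, with 154, 128 and 136 CPM in Mtphr2 replicates 1, 2 and 3, against 163, 126 and 118 CPM in R108 replicates 1, 2 and 3. Endodermis markers, set beside them, summed to 142, 146 and 177 CPM in Mtphr2 replicates 1, 2 and 3, against 157, 109 and 329 CPM in R108 replicates 1, 2 and 3, so R108 replicate 3 was their highest library too. The part of cell types in the order of these classes was not tested. Of 48 motor kinesins, 16 were lowest in Mtphr2 replicate 1 and highest in R108 replicate 3, as were 3 of 4 B-type cyclins and 3.26% of all tested genes. So were 2 of 10 A-type cyclins, of which 3 were highest in R108 replicate 1. The order counted here was read from the medians of these same genes, so the counts describe it and do not test it. The order was not limited to these classes. Over all members the median was lowest in Mtphr2 replicate 1 (-0.12) and highest in R108 replicate 3 (0.085). Mtphr2 replicate 1 was also lowest for D-type cyclins (-0.29) and CDK inhibitors (-0.28), but R108 replicate 3 was not their highest.

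**Figure D4:**
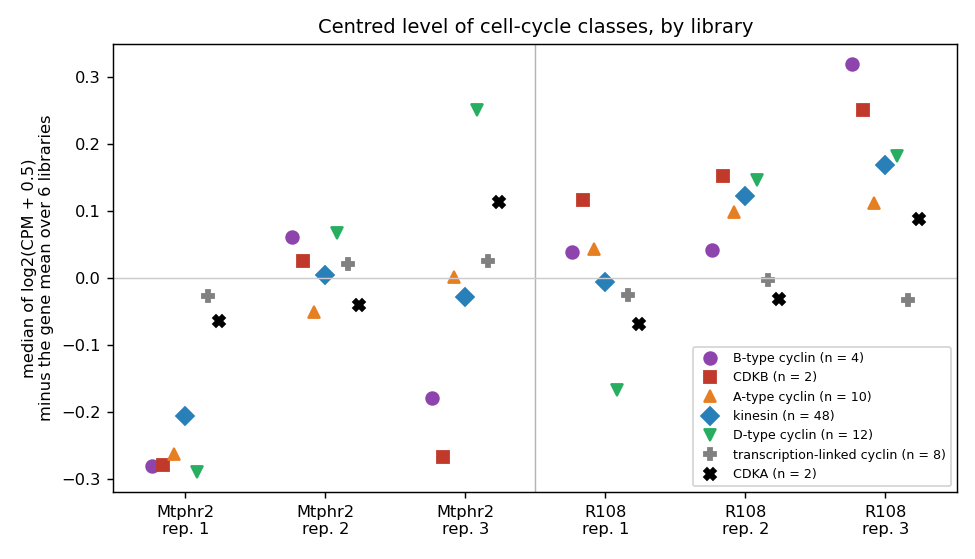
Median centred level of 7 classes (log2(CPM + 0.5) minus each gene's mean over the 6 libraries) in each Mtphr2 and R108 library. B-type and A-type cyclins, CDKB and kinesins are lowest in Mtphr2 replicate 1 and highest in R108 replicate 3, transcription-linked cyclins range from -0.032 to 0.026, and D-type cyclins range from -0.29 to 0.25 with no common order by genotype.

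Per length, the highest levels among members were not those of mitotic genes, though a CDKB gene was above every motor kinesin among the members. The lengths are the deposited ones, and 116 of 206 are multiples of 3, as for a coding sequence alone. Ranks between genes are therefore rough. On the scale of CPM per kilobase, the CDK gene MTR_5g026960, closest to CDKF-4 of rice, averaged 124 in Mtphr2 and 120 in R108. MTR_4g103810 (CDKG) averaged 86.3 in Mtphr2 and 67.6 in R108, and the cyclin-T1-3-like gene MTR_1g104820 averaged 76.5 in Mtphr2 and 71.3 in R108. The kinesin light chain-related gene MTR_8g099745 averaged 64.1 in Mtphr2 and 76.4 in R108. The CDKA gene MTR_2g032060 averaged 59.9 in Mtphr2 and 59.0 in R108. The CDKB gene MTR_1g075610 averaged 48.0 in Mtphr2 and 58.2 in R108, and the CKS1-like gene MTR_4g057040 48.1 in Mtphr2 and 52.3 in R108. The most abundant motor kinesin among the members was the KIN-13A-like gene MTR_2g436650, with 40.8 in Mtphr2 and 43.0 in R108. Another KIN-13A-like motor gene, MTR_4g119980, matched by Swiss-Prot name alone, was higher at 49.8 in Mtphr2 and 50.7 in R108. The most abundant B-type cyclin, MTR_5g088980, averaged 22.1 in Mtphr2 and 26.3 in R108 on the same scale, and the most abundant D-type cyclin, MTR_8g063120, 32.0 in Mtphr2 and 24.5 in R108.

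Members that carry a word of the rule but are no cyclin, CDK or motor held 2 of the 5 members with at least 2-fold differences, MTR_3g107650 and MTR_4g106900, both given above. Of 26 cyclin-like F-box proteins, 16 had no count in any library and 4 were tested, with a median log2 fold change of 0.22 and overlapping genotypes. The 8 tested genes with another closest protein, such as the SRL2-like and SCAB1-like genes, had values between -0.27 and 0.31. The 7 tested kinesin light chain-related genes had a median of 0.019 and a range from -2.63 to 0.56, with an unadjusted p under 0.05 in edgeR for 0 of them and 0 DESeq2 calls. Other genes with the word kinesin in their description numbered 3 tested, all with negative values and a median of -0.48. Of these, MTR_3g107650 was called by DESeq2, and MTR_5g026790, described only as a kinesin-like protein, had a log2 fold change of -0.48 (SE 0.16, edgeR adjusted p 0.259) with no overlap. The last, MTR_1g012360, was at -0.027 (SE 0.21, edgeR adjusted p 0.961).

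Other genes of the cell cycle were taken by words in the annotation, to set the members beside their partners. At an adjusted p under 0.05, edgeR called 0 of these 218 tested genes, the replicate block called 1 (0.459%, background 0.335%) and DESeq2 10 (4.59%, background 5.73%). The median log2 fold change was 0.027 for 11 genes of G1/S control, -0.11 for 39 of DNA replication, 0.028 for 42 of the anaphase-promoting complex and its activators, and -0.12 for 18 mitotic kinases and checkpoint genes. It was -0.072 for 5 MYB3R genes, -0.12 for 40 spindle, phragmoplast and cytokinesis genes, 0.0030 for 41 chromosome structure genes and -0.14 for 22 tubulins. At an unadjusted p under 0.05 there were 1, 6, 6, 3, 0, 8, 6 and 6 genes in these lists, in the same order, or 36 in all (16.5%, background 16.4%). The words of the anaphase-promoting complex also matched 44 RING-H2 finger proteins, most of them closest to other ubiquitin ligases, so that list is mixed.

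The DESeq2 calls were 9 genes with lower levels in Mtphr2 (4.13%, background 2.96%) and 1 with higher levels (0.459%, background 2.77%). Of the 9, 2 were in the DNA replication list and 1 in the cytokinesis list. MTR_8g099640, closest to subunit 1 of the origin of replication complex, which marks where DNA copying starts, was at 67.4, 68.9 and 61.4 CPM in Mtphr2 replicates 1, 2 and 3, against 90.8, 92.2 and 104 CPM in R108 replicates 1, 2 and 3. The 2 genotypes stayed apart, with a log2 fold change of -0.54 (SE 0.09), an adjusted p of 0.134 in edgeR and 0.000182 in DESeq2. MTR_8g105580, closest to the phragmoplast dynamin DRP1C, was at 111, 104 and 111 CPM in Mtphr2 replicates 1, 2 and 3, against 152, 146 and 143 CPM in R108 replicates 1, 2 and 3. It too had no overlap, with a log2 fold change of -0.43 (SE 0.08), an adjusted p of 0.134 in edgeR and 1.58e-05 in DESeq2.

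Among genes with a mean of at least 5 CPM, the lowest and highest values of G1/S control were -0.095 for the E2F gene MTR_3g113800 and 0.44 for the retinoblastoma-binding-like gene MTR_8g041740. In DNA replication the highest was 0.67 for MTR_4g117370, a small subunit of ribonucleotide reductase, which makes DNA building blocks. Mitotic kinases and checkpoint genes ran from -0.48 for the BUB1-like gene MTR_3g071460 to 0.49 for the MAD2B-like gene MTR_2g069340. These lists hold genes with values on both sides of 0. Spindle, phragmoplast and cytokinesis genes ran from -0.64 for MTR_4g130490, closest to AUGMIN subunit 8, to 0.91 for the TPX2 family gene MTR_3g064800. Chromosome structure genes ran from -0.42 for the kinetochore gene MTR_8g088840 (NUF2) to 0.49 for MTR_1g069015 (KNL-2). MYB3R genes, which control mitotic transcription, ran from -0.23 for MTR_3g110028 to 0.068 for MTR_7g461410, and the mixed list of the anaphase-promoting complex from -0.73 for MTR_7g078150 to 1.67 for MTR_7g117540, both RING finger genes. The adjusted p of these 13 genes ran from 0.255 to 0.858 in edgeR.

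Tubulins, the track proteins of kinesins, gave 5 of the 10 DESeq2 calls, all with lower levels in Mtphr2 (22.7% of 22 tested, background 2.96%). MTR_8g098360, a tubulin beta gene, was at 32.3, 19.6 and 31.2 CPM in Mtphr2 replicates 1, 2 and 3, against 71.9, 45.8 and 69.0 CPM in R108 replicates 1, 2 and 3. Its genotypes did not overlap, and its log2 fold change was -1.17 (SE 0.25), with an adjusted p of 0.172 in edgeR, 0.0345 with the replicate block and 0.00138 in DESeq2. Another tubulin beta gene, MTR_8g107250, had the order of the arbuscule markers within each genotype, with 109, 24.7 and 32.0 CPM in Mtphr2 replicates 1, 2 and 3, against 435, 194 and 60.2 CPM in R108 replicates 1, 2 and 3. Its genotypes overlapped, and its log2 fold change was -2.06 (SE 0.85, edgeR adjusted p 0.303). The highest tubulin was MTR_2g031310, with a value of 0.50 (SE 0.20, edgeR adjusted p 0.296).

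**Figure D5:**
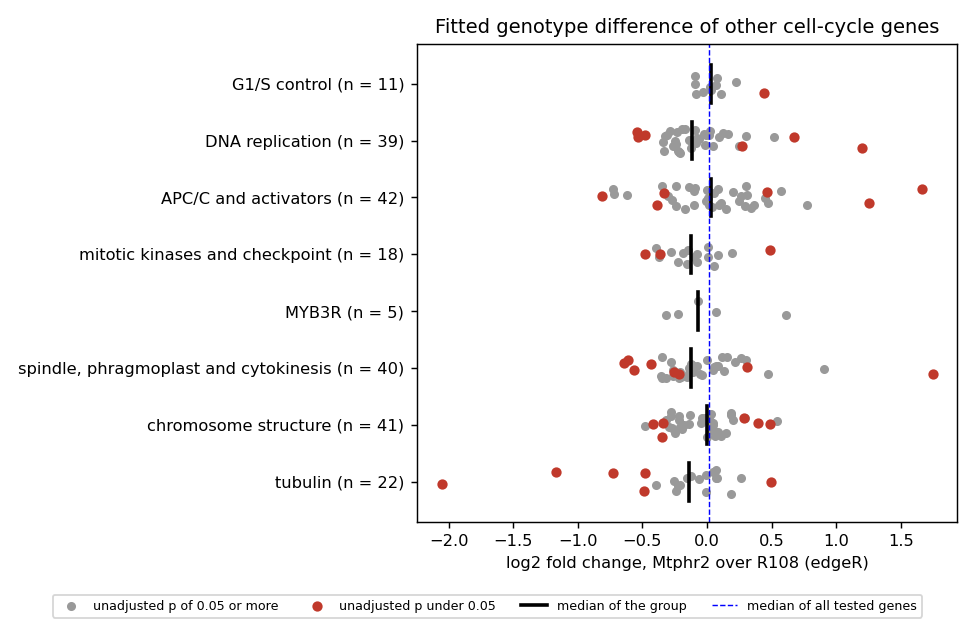
Each point is 1 tested gene of another cell-cycle list, placed by its log2 fold change (Mtphr2 over R108, edgeR) on the horizontal axis and by list on the vertical axis; black bars are list medians. All list medians lie between -0.14 and 0.028, and a tubulin lies near -2.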

How the data were processed

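Total RNA of mycorrhizal roots was extracted with TRIzol and sequenced on an Illumina NovaSeq, then aligned to Medicago genome v4.0 by HISAT2 and assembled by StringTie, per the labels' protocols. DESeq2 is also named, per the submitters' processing notes. Not given in the sources used here were tool versions, the counting program and any use of strand. Estimated counts with 2 decimals were deposited for 3 libraries per genotype, beside gene lengths and the authors' genotype means, which were not used.

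Counts were rounded and fitted over all genes in R 4.3.3. Genes were kept by filterByExpr of edgeR 4.0.16 (minimum count 10, minimum total 15), scaled by TMM and compared by its quasi-likelihood test on genotype, with Benjamini-Hochberg adjustment over all 22663 tested genes at 0.05. Alternatives were DESeq2 1.42.0, limma-voom (limma 3.58.1), other scalings and filters, the replicate number as a block, and leaving out each library. Files were read with the R package data.table (version 1.17.8) and figures drawn with matplotlib 3.10.9. Levels are CPM of the TMM-scaled library. The tests were checked on simulated counts, drawn independently for each library with few changed genes and no shared replicate pattern. There, DESeq2 recovered more of the changed genes than edgeR, but a larger share of its calls was false. In both, that share was above the threshold. The share depends on how many genes change, so it does not carry over to these data. DESeq2 calls that edgeR did not make are given as calls of that tool alone.

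Libraries of the same number in the titles correlated at 0.377, 0.151 and 0.168 across genes after genotype means were removed. Mtphr2 replicate 2 with R108 replicate 3, of different numbers, was at 0.187. These values do not settle whether the numbers pair the libraries. The main fit therefore had no block, and results with the replicate block are printed beside it where a call changes. Libraries of a genotype differed beyond sampling noise. Of the tested members, 15 had counts that were not whole in some library, as when reads are shared between similar genes.

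Members and lists were chosen with earlier results of these data known. Genes named are MTR_8g092290 and MTR_4g124650, members called by edgeR, the replicate block or DESeq2, and the highest and lowest fold changes of each class at a mean of at least 2 CPM (5 CPM for the other lists). Further genes, such as MTR_4g106900, MTR_2g088860, those given to complete a family, DESeq2 calls outside the members and genes most abundant per length, were chosen after their values were seen. Roles follow the closest Swiss-Prot entry in the deposited table. Gene coordinates of another assembly were left out, and no sequences are shown.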

Additional observations from a re-analysis of the deposited data

How the results depend on the processing

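Depth of 18199040 to 21477169 counts per library and 3 libraries per genotype limit these results, and the libraries are called technical replicates. The count of all genes called was 18 and changed to 34 with no low-count filter, 1298 with DESeq2, 31 with limma-voom and 6 with annotated genes only in the fit, and to between 7 and 44 when single libraries were left out. With the replicate block, which takes libraries of the same number as pairs, it was 76. Members called were 0 in edgeR, 8 in DESeq2, 0 with limma-voom and 0 with the replicate block, and 0 when any 1 library was left out. The 24 members with an unadjusted p under 0.05 became 13 to 25, with 13 without Mtphr2 replicate 3 and 14 without R108 replicate 2. Other cell-cycle genes called were 10 in DESeq2, 1 with the replicate block and 0 to 1 when single libraries were left out, the 1 without Mtphr2 replicate 1. The median of tested members ran from -0.11 to -0.052 over the left-out libraries, that of motor kinesins from -0.27 to -0.17, that of B-type cyclins from -0.36 to -0.18 and that of A-type cyclins from -0.34 to -0.17. 

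The U- and P-type median became -0.16 at a mean of at least 1 CPM, where 1 scarce gene is left out, and -0.091 to 0.22 over the left-out libraries. The transcription-linked median was 0.068 with library size alone and 0.0071 to 0.064 over the left-out libraries, and the CDK median -0.025 to 0.073. MTR_1g072860 ran from -0.42 to 0.013, with 0.013 without Mtphr2 replicate 1. MTR_8g092290 ran from -3.60 to -1.73, MTR_1g098300 from -2.89 to -1.61, MTR_3g107650 from -3.16 to -1.83 and MTR_4g124650 from -2.43 to -1.53, with an edgeR adjusted p of 0.143 to 0.412 for the KIN-7B-like gene. The causes were not tested. The replicate block changed the call of no member, and it changed that of MTR_4g124650, which is not a member. Without the 54 members outside the main classes, and with the 40 genes matched by Swiss-Prot name alone (added after seeing the data), the counts of members called in edgeR remained at 0 and the medians were -0.10 and -0.066. Scaling moved the median of all genes to 0.002 or 0.039.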

Other observations

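Another order of libraries was seen among D-type cyclins and a few other members, and edgeR, the replicate block and DESeq2 called 0 of the 4 genes given for it. In it, Mtphr2 replicate 3 was well above Mtphr2 replicate 1. At least 1.5 times as much in Mtphr2 replicate 3 as in Mtphr2 replicate 1 was found for 21 of 148 tested members (14.2%, against 10.96% of all tested genes), and for 5 of 12 D-type cyclins. MTR_2g089490, closest to cyclin-D6-1, a cyclin that in Arabidopsis drives divisions that form ground tissue layers, was at 8.13, 14.0 and 23.2 CPM in Mtphr2 replicates 1, 2 and 3, against 10.7, 18.6 and 11.9 CPM in R108 replicates 1, 2 and 3. The genotypes overlapped, and within R108 replicate 2 was the highest.

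The cyclin-D3-1-like gene MTR_1g107535 was at 26.3, 46.3 and 50.1 CPM in Mtphr2 replicates 1, 2 and 3, against 23.2, 41.9 and 25.2 CPM in R108 replicates 1, 2 and 3. It was higher in Mtphr2 within each number, with a log2 fold change of 0.44 (SE 0.32, edgeR adjusted p 0.529, 0.311 with the replicate block). The CDK-described gene MTR_4g109090 was at 18.4, 30.9 and 49.6 CPM in Mtphr2 replicates 1, 2 and 3, against 22.3, 36.5 and 21.3 CPM in R108 replicates 1, 2 and 3. The kinesin light chain-related gene MTR_8g027385 was at 11.8, 21.9 and 35.2 CPM in Mtphr2 replicates 1, 2 and 3, against 11.8, 19.0 and 16.1 CPM in R108 replicates 1, 2 and 3. In all 3 of these genes, Mtphr2 replicate 3 was the highest library and R108 replicate 2 the highest of its genotype. These genes were chosen after their values were seen.

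A run of neighbouring numbers holds 4 cyclin-A3-1-like genes, and their log2 fold changes were -0.39 for MTR_3g102520, -0.31 for MTR_3g102560, -0.26 for MTR_3g102530 and 0.10 for MTR_3g102510, with standard errors of 0.25, 0.32, 0.11 and 0.24. No test of a difference between these genes was run. MTR_3g102530 was the 1 of the 4 whose genotypes did not overlap.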
